A study of Mus musculus with 12 samples.

Results

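The comparison described here is the difference between the effect of an anti-Gr1 antibody 2 days after partial hepatectomy and its effect 1 day after. For each gene it is the anti-Gr1 minus isotype difference at post-operative day 2 (POD2) less the same difference at POD1, on a log2 scale, and is called the interaction below. It used all 12 of the 12 libraries of the study, and 15294 of the 18227 genes in the count table passed a filter on low counts and were tested. All animals were wild-type BALB/C male mice of 8 weeks that received 200 µg of antibody in 100 µl of PBS into the peritoneum, the same again 2 days later, and a 70% hepatectomy with the repeated dose. The 4 groups of 3 libraries were isotype antibody at POD1, anti-Gr1 antibody at POD1, isotype antibody at POD2 and anti-Gr1 antibody at POD2. The titles name the anti-Gr1 groups as depletion of granulocytic myeloid-derived suppressor cells (G-MDSC). No group went without hepatectomy or without antibody. The cells were the pellet of a collagenase perfusion after a 70 µm filter and slow centrifugation, which enriches hepatocytes but does not sort them. Whether replicates were different mice is not said in the labels, so every p-value rests on sample-to-sample spread that could be technical.

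After loss of liver mass the remaining hepatocytes leave quiescence and enter the cell cycle. In mice DNA synthesis in hepatocytes is followed by a wave of mitosis, and other liver cells divide later. Genes of mitosis are switched on together in G2 by the Foxm1 and MuvB-B-Myb complexes, which act at promoter elements called CHR and CCAAT boxes. The anaphase promoting complex, with its activator Cdc20, then destroys cyclin B and securin and lets the chromatids part. Sinusoidal endothelial cells and macrophages supply growth signals during this time, and hepatocytes keep up part of their secretory and metabolic work.

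Totals per library were 13189392 to 15822043 counts. Albumin and the other plasma protein genes held 1.739% to 15.97% of the counts, and genes of pancreatic acinar cells, which hepatocytes do not express, held 0.01809% to 31.07%. Ly6g, which encodes the main antigen of the antibody and marks neutrophils, was 0.971, 1.87 and 1.98 CPM (counts scaled to a common library total) in the isotype POD1 libraries and 43, 24.2 and 54.9 in the anti-Gr1 POD1 libraries. At POD2 it was 0.538, 0.789 and 0.246 with isotype and 25.4, 30.2 and 51.6 with anti-Gr1. Ly6g was thus higher in every library labelled anti-Gr1 than in any labelled isotype, which goes against the depletion the titles name, and every direction below refers to the libraries as labelled. In 3 pairs of libraries the counts were nearly identical. The chi-square per gene was 1.647 between isotype POD2 replicates 1 and 2, 3.634 between anti-Gr1 POD1 replicate 3 and anti-Gr1 POD2 replicate 3, and 5.593 between anti-Gr1 POD2 replicates 1 and 2, against 63.07 to 916.4 in the other 63 of the 66 pairs. The pair of replicates 3 carries labels of different days, is called the cross-day pair below, and goes against at least 1 of its labels. The interaction was therefore also fitted without the cross-day pair (10 libraries), with the near-identical pairs within a group summed, and with both changes. In means ± SD a near-identical pair counts once, which leaves n = 3 at POD1 and n = 2 at POD2.

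With all 12 libraries, 1358 genes had a higher and 1181 a lower antibody effect at POD2 than at POD1 by edgeR's quasi-likelihood test with Benjamini-Hochberg adjustment (8.88% and 7.72% of those tested, 16.6% together). Without the cross-day pair 1158 were higher (7.39%) and 872 lower (5.56%), 12.9% of 15679 together. In that fit anti-Gr1 POD2 was only its near-identical replicates 1 and 2, counted as separate libraries. The p-values of that fit therefore rest on a spread that may be too small. The fit of all 12 libraries also counted the near-identical isotype POD2 and anti-Gr1 POD2 pairs as separate libraries. Its p-values have the same limit. With pairs summed 549 were higher (3.51%) and 328 lower (2.1%), 5.6% of 15647 together. With both changes 13 were higher (0.0799%) and 63 lower (0.387%), 0.467% of 16267 together, in a fit where anti-Gr1 POD2 was a lone library assumed to vary like the other groups. Genes at an unadjusted p under 0.05 numbered 5034, 4801, 3858 and 2811 in these 4 sets of libraries. Between the first and second set 783 higher and 815 lower calls were shared and 0 were opposite. The shared genes were 57.7% of the higher and 69.0% of the lower calls with 12 libraries, and 67.6% and 93.5% of those with 10. The median interaction over all genes was -0.02 with 12 libraries and 0.04 with 10.

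**Figure D1:**
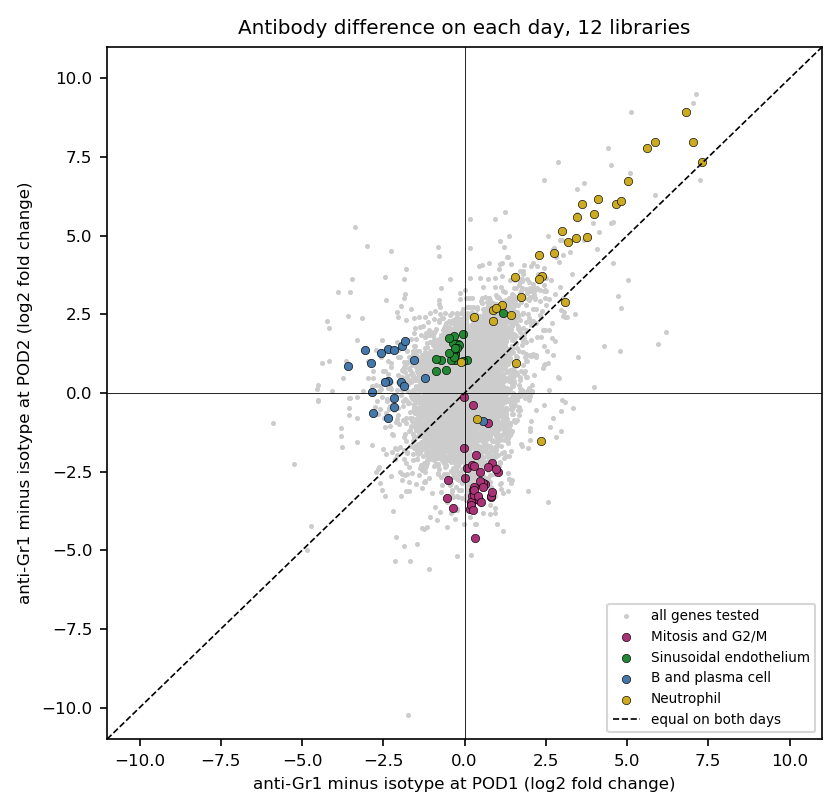
Each point is a gene, placed by its anti-Gr1 minus isotype log2 fold change at POD1 (horizontal axis) and at POD2 (vertical axis) in the 12 libraries, with the dashed line at equal values. Mitotic genes lie near 0 at POD1 and well below it at POD2, most sinusoidal endothelial genes lie above 0 at POD2 alone, and B cell genes lie left of 0 at POD1.

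The list with the largest share of genes called was that of mitosis. Of the 42 measured genes of mitosis and G2/M, 0 had a higher and 40 a lower interaction, with a median of -3.41. The genes not passing were Cdc25b, a phosphatase that activates Cdk1, at -0.61 (adjusted p = 0.384), and Mybl2, the B-Myb protein, at -0.11 (adjusted p = 0.895), by edgeR's quasi-likelihood test. Without the cross-day pair 38 of 42 were lower (median -3.05), with pairs summed 34 (median -3.20), and with both changes 21 (median -3.0), where 38 had an unadjusted p under 0.05. Leaving out 1 library gave 38 to 40. At POD1, where 2.25% of all genes were called higher and 1.18% lower (3.43% together), 2 of the 42 were higher and 0 lower in libraries labelled anti-Gr1, with a median of 0.34. With 10 libraries 2 were higher and 2 lower on that day, with a median of 0.01. At POD2, where 20.8% were called higher and 21.1% lower (41.9% together), 0 were higher and 40 lower, with a median of -2.98. Summed over the list, the level was 283, 349.7 and 234 CPM in isotype POD1, 286, 289 and 530.3 in anti-Gr1 POD1, 3650.0, 3701 and 3273 in isotype POD2 and 414, 407 and 527 in anti-Gr1 POD2. The isotype POD2 libraries stood far above the other 9. Among those, the anti-Gr1 POD2 libraries lay above isotype POD1, and anti-Gr1 POD1 reached them through replicate 3 of the cross-day pair alone. Plasma protein genes were also highest and endothelial genes lowest in those 3 libraries, at values given below, and the part of the cell mixture in the interactions was not tested.

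The promoters of 5 mitotic genes are shown because these genes moved together and because the elements named above can be read in them. The sequences are the 150 bases before the start that RefSeq gives each gene on GRCm38.p6, 5′ to 3′ on the gene's strand. The GENCODE start, used for the gene coordinates below, lies further upstream for Cdc20, Cdk1, Ube2c and Ccnb1, so that the end of these stretches falls inside the GENCODE gene. For Ccnb1 this is the greater part of the stretch. Marked letters inside the GENCODE genes include the last CCAAT of Cdc20 and of Ccnb1 and the last TTTGAA of Cdk1. Capitals mark TTTGAA, the core letters of the CHR, and CCAAT, each searched on both strands, so that TTCAAA and ATTGG are capitals too.
Cdc20 promoter, chr4:118437344-118437493, minus strand: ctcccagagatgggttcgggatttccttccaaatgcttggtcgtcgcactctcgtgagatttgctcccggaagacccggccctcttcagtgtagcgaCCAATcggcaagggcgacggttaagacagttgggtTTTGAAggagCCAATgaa
Cdk1 promoter, chr10:69352913-69353062, minus strand: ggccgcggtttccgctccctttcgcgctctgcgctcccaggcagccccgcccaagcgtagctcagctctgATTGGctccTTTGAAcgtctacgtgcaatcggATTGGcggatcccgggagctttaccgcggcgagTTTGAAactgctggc
Ube2c promoter, chr2:164769779-164769928, plus strand: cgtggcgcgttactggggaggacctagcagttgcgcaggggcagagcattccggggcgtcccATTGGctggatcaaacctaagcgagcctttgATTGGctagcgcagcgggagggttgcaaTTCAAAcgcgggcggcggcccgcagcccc
Ccnb1 promoter, chr13:100786487-100786636, minus strand: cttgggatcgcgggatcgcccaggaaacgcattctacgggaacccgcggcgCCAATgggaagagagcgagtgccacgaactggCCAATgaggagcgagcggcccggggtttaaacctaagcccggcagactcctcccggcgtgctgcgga
Ccnb2 promoter, chr9:70421555-70421704, minus strand: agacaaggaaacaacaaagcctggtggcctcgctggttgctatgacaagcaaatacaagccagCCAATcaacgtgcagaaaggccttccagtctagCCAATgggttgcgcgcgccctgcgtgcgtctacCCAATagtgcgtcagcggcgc
All 5 held at least 2 CCAAT boxes in this window, and Cdc20, Cdk1 and Ube2c also held TTTGAA. RefSeq promoters were found for 35 of the 42 mitotic genes and 30 of the 40 S phase genes. Between 250 bases before and 50 after the start, TTTGAA stood in 23 of 35 mitotic promoters (65.7%), 6 of 30 S phase promoters (20%) and 20.2% of all 27025 mouse promoters. With the 50 bases after the start left out these were 10 of 35 (28.6%), 20% and 18.3%. CCAAT stood in 25 of 35 (71.4%), 19 of 30 (63.3%) and 41.1%. The words can share no more than an end letter, and a match describes the letters and not a site in use.

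Cdc20, the activator of the anaphase promoting complex (chr4:118432901-118437352 on the minus strand, GRCm38), had the lowest interaction of the genes called in all 4 sets of libraries. It was 6.75, 9.70 and 7.18 CPM in isotype POD1, 8.36, 7.51 and 13.9 in anti-Gr1 POD1, 297, 304 and 278 in isotype POD2 and 11.7, 9.95 and 14.7 in anti-Gr1 POD2. The 3 isotype POD2 libraries were the only high ones. The anti-Gr1 POD2 libraries lay slightly above isotype POD1, and of the anti-Gr1 POD1 libraries replicate 3 of the cross-day pair alone reached their range. Isotype libraries went from 7.88 ± 1.60 (SD, n = 3) at POD1 to 289 ± 15.8 CPM (SD, n = 2) at POD2, 36.7-fold higher. Libraries labelled anti-Gr1 went from 9.91 ± 3.46 (SD, n = 3) to 12.8 ± 2.74 CPM (SD, n = 2), 1.29-fold higher. The interaction of Cdc20 was -4.93 ± 0.35 (SE; adjusted p = 0.000134, edgeR's quasi-likelihood test) and -4.78 ± 0.26 without the cross-day pair (adjusted p = 5.3e-05). Ube2c, which hands ubiquitin to the same complex, was -3.97 ± 0.45. Pttg1, the securin it destroys, was -3.70 ± 0.35, and Espl1, the separase that securin holds back, was -2.81 ± 0.30.

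Cyclin B and its kinase showed the same order of groups. Ccnb1, cyclin B1 (chr13:100778650-100786570 on the minus strand), was 1.78, 2.22 and 1.32 CPM in isotype POD1, 2.12, 2.38 and 4.88 in anti-Gr1 POD1, 38, 38.9 and 35.4 in isotype POD2 and 3.07, 3.08 and 5.13 in anti-Gr1 POD2. Cdk1, the kinase it activates (chr10:69335146-69352938 on the minus strand), was 13.7, 14.3 and 12 CPM in isotype POD1, 12.2, 13.2 and 21.9 in anti-Gr1 POD1, 181, 178 and 179.7 in isotype POD2 and 14.2, 17.9 and 23.6 in anti-Gr1 POD2. In both genes the isotype POD2 libraries did not overlap with any other. From POD1 to POD2 Ccnb1 was 20.8-fold higher with isotype and 1.31-fold higher in libraries labelled anti-Gr1, and Cdk1 13.4-fold and 1.26-fold. The interaction was -4.14 ± 0.47 for Ccnb1, -3.75 ± 0.47 for Ccnb2, -2.71 ± 0.48 for Ccna2 (cyclin A2) and -3.51 ± 0.33 for Cdk1, with adjusted p of 0.000535, 0.000903, 0.00609 and 0.000260 by edgeR's quasi-likelihood test. Without the cross-day pair these were -3.97, -3.60, -2.33 and -3.41. Ccnb1 and Cdk1 also passed in the smallest set of libraries, while Ccnb2 was -3.58 there (adjusted p = 0.0752) and Ccna2 -2.24 (adjusted p = 0.117).

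Foxm1, the transcription factor of G2 genes (chr6:128362967-128376146 on the plus strand), was 7.50, 5.34 and 5.03 CPM in isotype POD1, 4.96, 5.02 and 11.4 in anti-Gr1 POD1, 89.9, 87.7 and 80.3 in isotype POD2 and 10.3, 8.58 and 11.3 in anti-Gr1 POD2. Plk1, the mitotic kinase that activates it (chr7:122159439-122169873 on the plus strand), was 5.56, 5.41 and 5.63 CPM in isotype POD1, 8.92, 6.68 and 13.4 in anti-Gr1 POD1, 116, 113 and 98.6 in isotype POD2 and 10.8, 9.17 and 13.7 in anti-Gr1 POD2. Of the 6 libraries labelled anti-Gr1, both members of the cross-day pair were the highest for both genes. The interaction was -3.35 ± 0.42 for Foxm1 (adjusted p = 0.000962, edgeR) and -4.08 ± 0.33 for Plk1 (adjusted p = 0.000158), and -2.94 and -3.95 without the cross-day pair. The Aurora kinases of the spindle, Aurka and Aurkb, were -3.86 ± 0.30 and -3.42 ± 0.30. Birc5, the survivin that works with Aurkb, was -3.75 ± 0.46.

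Genes of the spindle, the kinetochore and its checkpoint followed. Kif2c, a kinesin that shortens microtubules, was -3.97 ± 0.26, and Kif11, which pushes the poles apart, -3.31 ± 0.41. Cenpf and Ndc80 of the kinetochore were -3.83 ± 0.39 and -3.08 ± 0.43, and Bub1b and Mad2l1, which hold the checkpoint, -3.07 ± 0.28 and -2.46 ± 0.31. Top2a, the topoisomerase that untangles sister chromatids, was -2.97 ± 0.37. All 7 passed in each of the 4 sets of libraries. At POD1 alone, Kif2c was 0.84 (adjusted p = 0.0388) and Bub1b 0.84 (adjusted p = 0.0458) by edgeR's test, the 2 mitotic genes higher in libraries labelled anti-Gr1 on that day. Kif23 and Anln, which build the cleavage furrow, had smaller interactions of -1.67 ± 0.50 and -1.75 ± 0.49, and without the cross-day pair neither passed, at -1.41 (adjusted p = 0.0608) and -1.36 (adjusted p = 0.0772).

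**Figure D2:**
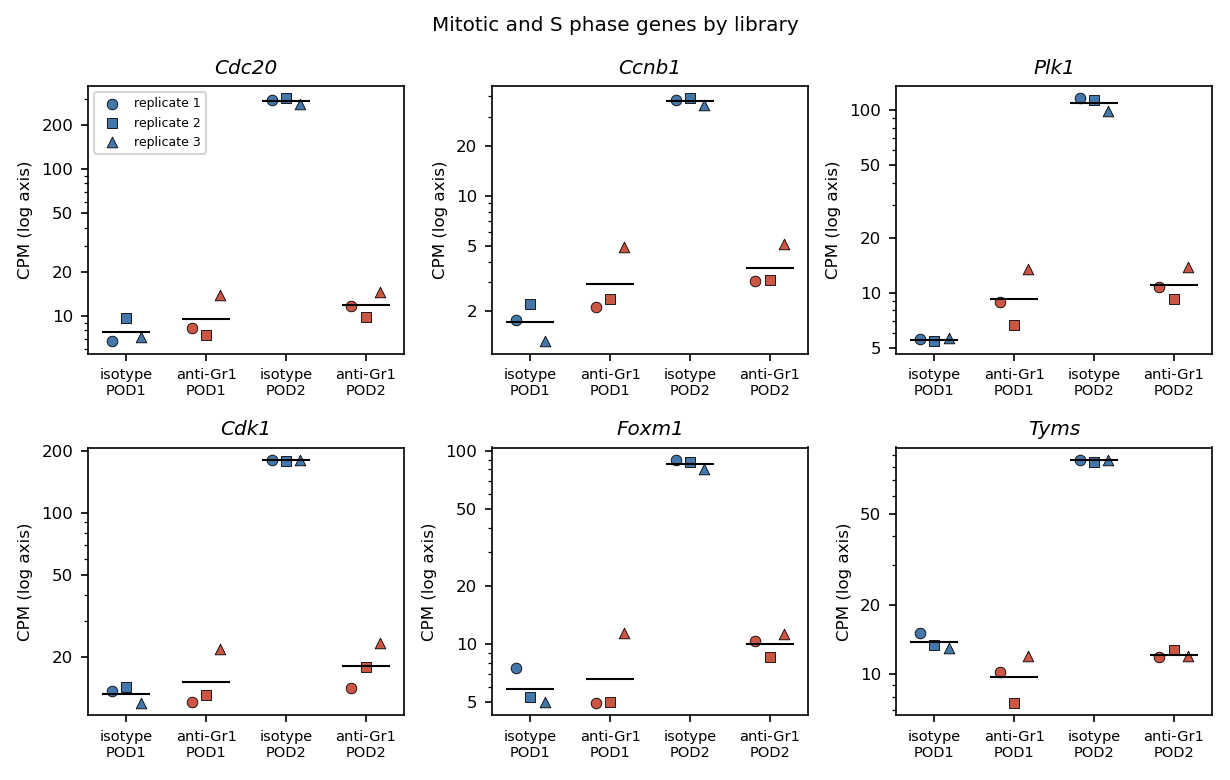
CPM per library on a log axis for 5 mitotic genes and Tyms, with 1 symbol per replicate number, isotype in blue, anti-Gr1 in red and a bar at the geometric mean of the 3 libraries. In all 6 panels the 3 isotype POD2 libraries lie above the other 9.

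Genes called in all 4 sets of libraries numbered 68, with 63 lower and 5 higher. Of the 63, 24 stood on the lists of mitosis and DNA replication. Others that rank near the top are Iqgap3 at -4.57, Cdca3 at -4.49, Cdca2 at -4.38, Cenpm at -4.15, Ckap2 at -4.11 and Depdc1b at -4.0. Cdca3 helps to degrade the Cdk1 inhibitor Wee1, Cdca2 brings phosphatase to chromatin at mitotic exit, Cenpm belongs to the inner kinetochore and Ckap2 binds spindle microtubules. H2afx, the histone variant phosphorylated at DNA breaks, was 26.6, 28.9 and 24.3 CPM in isotype POD1, 31.7, 20.6 and 32.8 in anti-Gr1 POD1, 248, 240.3 and 241 in isotype POD2 and 23.8, 23.1 and 33.3 in anti-Gr1 POD2, with an interaction of -3.28 ± 0.28. Neurl1b, a ubiquitin ligase of the Neuralized family, was -3.69 ± 0.49, and Serpinb8, an intracellular protease inhibitor, -3.17 ± 0.31; these 3 were named after their values were seen.

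The 5 higher genes had small levels. Cd209b, a C-type lectin known from macrophages of the spleen's marginal zone and from liver sinusoidal endothelium in mice (chr8:3917655-3926844 on the minus strand), was 13.9, 13.9 and 17.4 CPM in isotype POD1, 5.17, 6.83 and 3.88 in anti-Gr1 POD1, 1.26, 1.05 and 1.97 in isotype POD2 and 4.83, 4.84 and 4.30 in anti-Gr1 POD2. It was higher with isotype than with anti-Gr1 at POD1 and lower at POD2, and the groups did not overlap on either day. Its interaction was 3.23 ± 0.37 (adjusted p = 0.000558, edgeR's quasi-likelihood test) and 3.10 without the cross-day pair. Lrp2, the endocytic receptor megalin, had an interaction of 2.60, Tmcc2 2.46, Gabra3, a GABA receptor subunit, 2.21, and Sema6a, a guidance protein, 1.84. Lrp2 also changed side, with -1.51 at POD1 (adjusted p = 0.0239) and 1.09 at POD2 (adjusted p = 0.0150) by edgeR's test.

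Most genes of DNA replication and the G1/S step also had a lower interaction. Of 40 measured, 1 had a higher and 27 a lower interaction, with a median of -1.46. With 10 libraries the counts were 1 and 26 (median -1.43), with pairs summed 0 and 18, and with both changes 0 and 3. Without scaling factors 17 were lower and the median was -0.88, -1.45 relative to all genes. At POD2 35 of the 40 were lower and 2 higher in libraries labelled anti-Gr1, and at POD1 0 and 0. The summed level was 946, 1076 and 767 CPM in isotype POD1, 770.0, 764 and 942 in anti-Gr1 POD1, 2254, 2283 and 2118 in isotype POD2 and 829.7, 839 and 942 in anti-Gr1 POD2. Only the isotype POD2 libraries stood above the range of the rest.

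Enzymes that supply nucleotides had the 3 lowest values of the list. Tyms, thymidylate synthase (chr5:30058202-30073617 on the minus strand), was 15.1, 13.4 and 13.1 CPM in isotype POD1, 10.2, 7.51 and 12 in anti-Gr1 POD1, 85.9, 84.5 and 86.3 in isotype POD2 and 11.8, 12.7 and 12.1 in anti-Gr1 POD2. From POD1 to POD2 it was 6.19-fold higher with isotype and 1.23-fold higher in libraries labelled anti-Gr1, with an interaction of -2.32 ± 0.22 (adjusted p = 0.000251, edgeR). Rrm2 of ribonucleotide reductase was -2.43 ± 0.33 and Tk1, thymidine kinase, -2.35 ± 0.32. Gins2 of the helicase and Rfc5 of the clamp loader were -2.11 ± 0.23 and -1.94 ± 0.15. Tyms, Gins2 and Rfc5 were the 3 genes of the list that passed in all 4 sets.

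Some of the helicase subunits passed. Mcm5, Mcm6 and Mcm7 were -1.96 ± 0.28, -1.93 ± 0.33 and -1.92 ± 0.25, while Mcm2, Mcm3 and Mcm4 were -0.57 ± 0.28, -0.73 ± 0.25 and -0.23 ± 0.21 and did not pass (adjusted p = 0.190, 0.0663 and 0.488, edgeR). The difference between subunits was not tested. Pcna, the sliding clamp, was -1.08 ± 0.21, and E2f1, the factor that starts S phase genes, -1.38 ± 0.21. Ccne1, cyclin E1, was 9.82, 11.1 and 7.48 CPM in isotype POD1, 5.88, 5.90 and 8.44 in anti-Gr1 POD1, 31.1, 32.7 and 29.2 in isotype POD2 and 6.14, 7.72 and 7.35 in anti-Gr1 POD2, with an interaction of -1.64 ± 0.27. Among the D cyclins of G1, Ccnd1 was -0.48 ± 0.42 (adjusted p = 0.452) and Ccnd2 1.58 ± 0.35 (adjusted p = 0.0148), the list's only higher interaction.

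Of 22 p53 targets and CDK inhibitors, 1 had a higher and 3 a lower interaction, a share near the 16.6% of all genes. Their median of -0.36 became 0.24 without scaling factors, which shifted the median of all genes by 0.592 and left the list at -0.33 relative to it. Cdkn2c, the p18 inhibitor of the cyclin D kinases, was 9.17, 9.84 and 8.14 CPM in isotype POD1, 6.87, 8.80 and 11.4 in anti-Gr1 POD1, 75.8, 77.8 and 61 in isotype POD2 and 9.43, 8.45 and 12.1 in anti-Gr1 POD2. Its high libraries were again the isotype POD2 ones, with an interaction of -2.84 ± 0.28 (adjusted p = 0.000297, edgeR). Gadd45a and Phlda3 were -1.79 ± 0.35 and -1.39 ± 0.39, and Sesn1 0.74 ± 0.22. Cdkn1a, the p21 inhibitor, was -0.65 ± 0.46 and did not pass (adjusted p = 0.345).

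Genes of sinusoidal endothelial cells had a higher antibody effect at POD2 than at POD1. Of 22 measured, 20 were higher and 0 lower, with a median of 1.64; without the cross-day pair 14 were higher (median 1.42), with pairs summed 14, and with both changes 0 (median 1.48), where 19 had an unadjusted p under 0.05. Leaving out 1 library gave 15 to 22. The exceptions with 12 libraries were Stab1 at 0.99 (adjusted p = 0.112, edgeR) and Lyve1 at 1.36 (adjusted p = 0.221). The summed level was 10490, 12460 and 12910 CPM in isotype POD1, 8256, 10780 and 9219 in anti-Gr1 POD1, 3550.0, 3460.0 and 2695 in isotype POD2 and 6807, 6236 and 9928 in anti-Gr1 POD2. The isotype POD2 libraries were the lowest 3 and did not overlap with any other group. In these bulk samples fewer cells of a type and less RNA per cell cannot be told apart. Plasma protein genes, which mark hepatocytes, moved the opposite way, at 23600, 22630 and 32840 CPM in isotype POD1, 17520, 16880 and 69970 in anti-Gr1 POD1, 194500, 193500 and 204000 in isotype POD2 and 56730, 58440 and 70130 in anti-Gr1 POD2.

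Bmp2, a ligand from endothelium that sets hepcidin in hepatocytes (chr2:133552159-133562885 on the plus strand), was 318, 295 and 503 CPM in isotype POD1, 216, 333 and 254 in anti-Gr1 POD1, 62.1, 59.6 and 54 in isotype POD2 and 169, 162 and 262 in anti-Gr1 POD2. From POD1 to POD2 its mean was 0.154 of the POD1 level with isotype and 0.797 in libraries labelled anti-Gr1, with an interaction of 2.23 ± 0.37 (adjusted p = 0.00387, edgeR). Bmp6, its partner ligand, was 2.08 ± 0.26, and the BMP target genes Smad6 and Smad7 were 1.63 ± 0.27 and 1.32 ± 0.26. Hepcidin itself, Hamp, was -1.81 ± 1.41 and did not pass (adjusted p = 0.400). The angiopoietin receptor Tek was 2.13 ± 0.38 and the VEGF receptors Flt1 and Kdr 1.96 ± 0.39 and 1.75 ± 0.48. The Wnt ligands of endothelium, Wnt2 and Wnt9b, were 1.95 ± 0.40 and 1.67 ± 0.38, and Rspo3, which strengthens Wnt signals, 1.07 ± 0.31. With 10 libraries Bmp2, Tek, Flt1, Kdr and Wnt2 passed, while Wnt9b (1.42, adjusted p = 0.0508) and Rspo3 (0.87, adjusted p = 0.0895) did not.

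Among 32 growth factors and receptors of regeneration, 9 had a higher and 0 a lower interaction, and the list's median of -0.04 was near that of all genes. The median became 0.55 without scaling factors, -0.02 relative to all genes. In edgeR 4 were higher without the cross-day pair, 5 with pairs summed and 0 with both changes, where 7 had a higher value at an unadjusted p under 0.05. Leaving out 1 library gave 4 (without isotype POD1 replicate 2) to 14 (without anti-Gr1 POD1 replicate 2). Flt1, Kdr, Wnt2 and Rspo3 from above are 4 of the 9. Hbegf, an EGF receptor ligand, was 1.51 ± 0.40, Tgfb1 and its receptor Tgfbr2, which brake hepatocyte growth, 1.35 ± 0.34 and 1.64 ± 0.32, and Il6st and Osmr of interleukin 6 family signalling 1.51 ± 0.46 and 1.33 ± 0.31; these 5 passed with 12 libraries. Hgf, the main hepatocyte mitogen, was 50.6, 36.9 and 55.1 CPM in isotype POD1, 21.5, 115 and 52.4 in anti-Gr1 POD1, 13.2, 15.6 and 5.42 in isotype POD2 and 34.1, 32.3 and 51 in anti-Gr1 POD2. Its POD1 groups overlapped, anti-Gr1 POD1 replicate 2 was the highest library, and the interaction of 1.36 ± 0.75 did not pass (adjusted p = 0.236, edgeR). Its receptor Met was -1.38 ± 0.79 (adjusted p = 0.249) and Egfr -1.78 ± 1.10 (adjusted p = 0.286).

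Some macrophage genes had a higher interaction. Of 17 Kupffer cell genes 5 had a higher and 0 a lower interaction (median 1.26), and without the cross-day pair 3 were higher (median 0.86). Without anti-Gr1 POD1 replicate 2 the higher calls were 13 among Kupffer genes, 13 among the monocyte genes described next and 16 among neutrophil genes. Over all genes the higher calls also rose in that fit, from 1358 to 2173. Other single omissions left as few as 3, 4 and 4 higher calls in these lists. Higher calls with pairs summed were 3, 3 and 3. Timd4, a receptor for dying cells on resident Kupffer cells, was 107, 164 and 123 CPM in isotype POD1, 35.7, 62.9 and 64.3 in anti-Gr1 POD1, 32, 34.5 and 25.4 in isotype POD2 and 55.7, 52 and 64.7 in anti-Gr1 POD2. It was lower in libraries labelled anti-Gr1 at POD1 (-1.27, adjusted p = 0.0206) and higher at POD2 (0.91, adjusted p = 0.0113), with an interaction of 2.18 ± 0.34 (adjusted p = 0.00280, edgeR). Vsig4 and Adgre1 were 1.84 ± 0.40 and 2.19 ± 0.45, both passing, and Clec4f was 1.33 (adjusted p = 0.0712). Of 25 genes of monocytes and recruited macrophages 5 were higher, among them Adgre4 at 2.52 ± 0.31 and Ly6c2, the other antigen that anti-Gr1 binds, at 1.44 ± 0.29. In the 10-library fit 4 were higher and 1 lower, the latter Gpnmb, a lysosomal glycoprotein, at -2.16 ± 0.61 (adjusted p = 0.0465).

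Neutrophil genes were high in libraries labelled anti-Gr1 on both days, and for most the test did not separate the days. Of 33 measured, 24 were higher at POD1 and 30 at POD2, against 2.25% and 20.8% of all genes. In the 12-library fit 9 had a higher and 1 a lower interaction (median 1.61), against 8.88% and 7.72% of all genes. With 10 libraries 3 were higher and 1 lower, and with pairs summed also 3 and 1. Retnlg and Ltf, of the granules of mature neutrophils, were 2.16 ± 0.41 and 2.18 ± 0.59. Ly6g was 1.34 ± 0.67 and did not pass (adjusted p = 0.190, edgeR). The summed level was 2442, 1967 and 2325 CPM in isotype POD1, 13590, 14580 and 10310 in anti-Gr1 POD1, 2631, 2613 and 3567 in isotype POD2 and 8984, 10060 and 9775 in anti-Gr1 POD2. In these sums isotype libraries lay higher at POD2 than at POD1 and anti-Gr1 libraries lower. The summed antibody difference was thus smaller at POD2, opposite to the median over genes.

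Prtn3, proteinase 3 of primary granules (chr10:79874476-79883174 on the plus strand), was the only neutrophil gene with a lower interaction. It was 10.8, 8.73 and 8.92 CPM in isotype POD1, 79.1, 32.3 and 33.6 in anti-Gr1 POD1, 61, 60.0 and 88.2 in isotype POD2 and 19.1, 22.4 and 31 in anti-Gr1 POD2. Libraries labelled anti-Gr1 were all higher than isotype at POD1 and all lower at POD2. The difference was 2.35 at POD1 (adjusted p = 0.00825) and -1.53 at POD2 (adjusted p = 0.00476), and the interaction -3.87 ± 0.49 (adjusted p = 0.000977, edgeR's quasi-likelihood test), which passed in all 4 sets. The other primary granule proteases and peroxidase did not share the POD2 level with isotype. Elane, neutrophil elastase, was 1.08, 1.40 and 0.986 CPM in isotype POD2, Ctsg, cathepsin G, 0.0897, 0.263 and 0, and Mpo, myeloperoxidase, 0.897, 1.49 and 0.863, against 61, 60.0 and 88.2 for Prtn3. Their interactions were -0.22 (adjusted p = 0.868), 2.13 (adjusted p = 0.257) and 1.47 (adjusted p = 0.231).

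The B and plasma cell genes differed between the antibodies at POD1. Of 20 measured, 9 were lower and 0 higher in libraries labelled anti-Gr1 at POD1, 0 and 1 at POD2, and 13 had a higher and 0 a lower interaction (median 2.78). In the 10-library fit 13 were higher, with pairs summed 1 and with both changes 0 in edgeR, where 14 had an unadjusted p under 0.05. Leaving out isotype POD1 replicate 2 gave 5, and leaving out any 1 library 4 (without isotype POD2 replicate 1) to 13. Ighm, the heavy chain of IgM (chr12:113418558-113422730 on the minus strand), was 491, 671 and 446 CPM in isotype POD1, 195, 175 and 45.4 in anti-Gr1 POD1, 60.0, 56.8 and 52.9 in isotype POD2 and 82.3, 86.2 and 48.1 in anti-Gr1 POD2. The isotype POD1 libraries were the highest 3, the POD2 groups overlapped, and the interaction was 2.30 ± 0.62 (adjusted p = 0.0311, edgeR). Jchain, which joins IgM into polymers, was 2.01 ± 0.58. Ighd and Cd79a of naive B cells were 3.84 ± 1.13 and 3.84 ± 0.93, at levels that were highest in isotype POD1 replicate 2, which also held the most erythroid transcripts.

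The erythroid genes had the highest median of all lists with 12 libraries and rested on uneven libraries. Of 10 measured, 6 had a higher and 0 a lower interaction (median 4.48), and without the cross-day pair 1 of 10 passed. With pairs summed 0 and with both changes 0 passed in edgeR, where 7 and 2 were higher at an unadjusted p under 0.05. Leaving out 1 library gave 1 (without isotype POD2 replicate 2) to 7. Hbb-bs, a beta globin, was 1644, 7990.0 and 792 CPM in isotype POD1, 112, 215 and 123 in anti-Gr1 POD1, 59.6, 66.8 and 62.2 in isotype POD2 and 44.1, 49.6 and 112 in anti-Gr1 POD2. All 3 isotype POD1 libraries lay above the rest and spanned 792 to 7990 CPM. Slc4a1, the anion exchanger of red cells, was 5.83, 116 and 3.59 CPM in isotype POD1, where replicate 2 alone was high, and its interaction was 6.52 ± 1.89 (adjusted p = 0.0406, edgeR) and 6.17 without the cross-day pair (adjusted p = 0.168). The alpha globin Hba-a1 was 4.25 ± 1.0; the globin genes have near-identical copies, so reads may be split between them. Of 22 T and NK cell genes 5 had a higher and 0 a lower interaction (median 2.05), all at low levels, and leaving out 1 library gave 1 (without isotype POD1 replicate 2) to 10 (without anti-Gr1 POD1 replicate 2). The 5 were the killer cell genes Gzmb (2.26), Prf1 (2.48) and Klrk1 (1.37) and the chemokines Xcl1 (3.49) and Ccl5 (1.43).

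**Figure D3:**
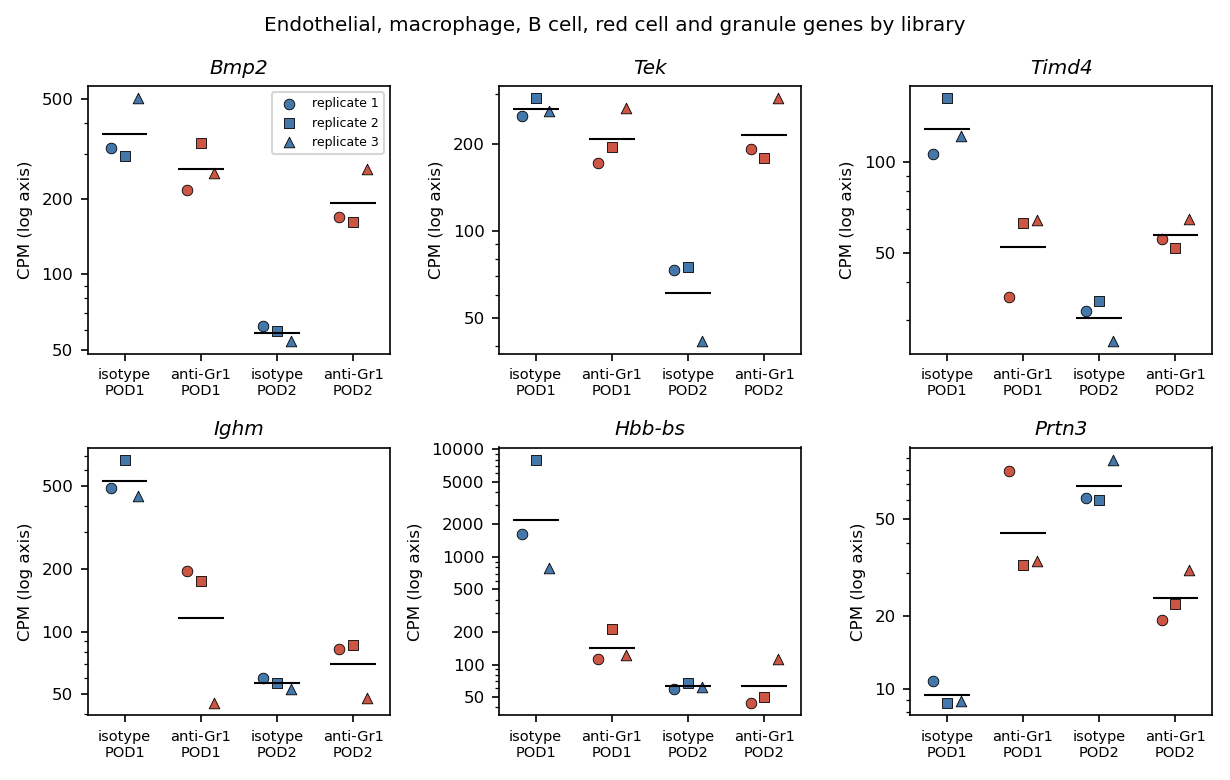
CPM per library on a log axis for genes of endothelium (Bmp2, Tek), Kupffer cells (Timd4), B cells (Ighm), red cells (Hbb-bs) and primary granules (Prtn3), with symbols by replicate number and a bar at the geometric mean of the 3 libraries. Bmp2, Tek and Timd4 are lowest in isotype POD2, Ighm and Hbb-bs are highest in isotype POD1, and Prtn3 is lowest in isotype POD1.

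Of 23 genes of stellate cells and fibroblasts, 4 had a higher and 0 a lower interaction (median 0.82), and without the cross-day pair 9 were higher (median 1.09). Only 1 was higher with pairs summed, and leaving out 1 library gave 3 to 9. Over all genes 8.88% were called higher with 12 libraries and 7.39% with 10. Dcn, the matrix protein decorin, was 1.77 ± 0.32, Pdgfra, a receptor for platelet-derived growth factor, 1.71 ± 0.38, Col6a1 1.35 ± 0.32 and Sparc 1.01 ± 0.29. Col1a2, Col3a1 and Lum passed only in the fit of 10 libraries among these 2 fits, at 1.18, 1.52 and 1.58. Of 23 immediate early genes 4 were higher with 12 libraries, 6 without the cross-day pair and 1 with pairs summed. Their higher calls ranged from 2 to 9 when 1 library was left out. The 4 were Klf4 at 2.35 ± 0.32, Egr2 at 1.53 ± 0.34, Klf2 at 1.51 ± 0.37 and the phosphatase Dusp1 at 1.49 ± 0.40. Fos, Jun and Myc were 1.09, 0.20 and 0.08 and did not pass (adjusted p = 0.0894, 0.755 and 0.899, edgeR). Of 18 clock genes 2 were higher with 12 libraries, a share near that of all genes. Without the cross-day pair 4 were higher, against 7.39% of all genes, and with pairs summed 0. The clock median was 0.50 with 12 libraries and 0.91 with 10. The 2 higher with 12 libraries were Npas2 at 2.16 ± 0.62 and Nr1d1, the repressor Rev-erb alpha, at 1.43 ± 0.34. Nr1d1 was -1.58 at POD1 (adjusted p = 0.00961) and -0.15 at POD2 (adjusted p = 0.634) by edgeR's test.

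Part of the cholesterol synthesis genes had a lower antibody effect at POD2. Of 24 measured, 0 had a higher and 11 a lower interaction (median -1.57). In the 10-library fit 8 were lower (median -0.83), with pairs summed 2 and with both changes 0 in edgeR, where 9 had an unadjusted p under 0.05. Without scaling factors 1 was lower, and leaving out 1 library gave 3 (without isotype POD2 replicate 3) to 16 (without anti-Gr1 POD1 replicate 1). The summed level was 726, 579 and 798 CPM in isotype POD1, 478, 686 and 1996 in anti-Gr1 POD1, 5048, 5071 and 4926 in isotype POD2 and 2237, 2176 and 2082 in anti-Gr1 POD2. The isotype POD2 libraries were highest, and anti-Gr1 POD1 replicate 3 was as high as the anti-Gr1 POD2 libraries. Pmvk, the phosphomevalonate kinase (chr3:89454541-89469013 on the plus strand), was 15.1, 14.3 and 16.5 CPM in isotype POD1, 13.7, 15.2 and 19.3 in anti-Gr1 POD1, 60.9, 58.5 and 77.8 in isotype POD2 and 17.5, 20.8 and 17.7 in anti-Gr1 POD2. Its interaction was -1.89 ± 0.23 (adjusted p = 0.000702, edgeR) and -1.70 without the cross-day pair (adjusted p = 0.00283). Lss, which closes the sterol rings, was -1.46 ± 0.27, and Sc5d and Ebp, of the late steps, -2.22 ± 0.57 and -1.88 ± 0.44; all 3 passed with and without the pair. Srebf2, the factor that drives the pathway, was -0.65 (adjusted p = 0.0656).

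Of 24 genes of fatty acid and triglyceride synthesis 1 had a higher and 5 a lower interaction in the fits with and without the cross-day pair. Their medians were -0.78 and -0.14. Over all genes 8.88% were called higher and 7.72% lower with the pair, and 7.39% and 5.56% without it. The calls depended on the processing. With near-identical pairs summed 1 was higher and 1 lower, and without scaling factors 1 and 2. Lower calls ranged from 3 to 6 when 1 library was left out. The median was -0.15 with both changes. Srebf1, which drives this pathway, was 52.5, 61.1 and 53.2 CPM in isotype POD1, 58.8, 70.8 and 135 in anti-Gr1 POD1, 292, 293 and 339 in isotype POD2 and 129, 127 and 140.2 in anti-Gr1 POD2. Its interaction was -1.89 ± 0.36 (adjusted p = 0.00816, edgeR) and -1.49 without the pair. Acaca and Fasn, which make malonyl-CoA and palmitate, were -1.50 ± 0.29 and -1.55 ± 0.47, and Dgat1, which makes triglyceride, -1.41 ± 0.24. Afp, the fetal albumin relative, was 2.75, 1.87 and 3.53 CPM in isotype POD1, 2.48, 1.60 and 2.31 in anti-Gr1 POD1, 18.9, 17.3 and 11.9 in isotype POD2 and 2.63, 2.95 and 2.01 in anti-Gr1 POD2, with an interaction of -2.30 ± 0.40 (adjusted p = 0.00548).

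The interaction of hepatocyte function genes turned on the cross-day pair. In anti-Gr1 POD1 replicate 3 these genes were at the level of the anti-Gr1 POD2 libraries, while in replicates 1 and 2 they were far lower. Alb, albumin, was 4124, 3545 and 5270.0 CPM in isotype POD1, 526, 1205 and 14110 in anti-Gr1 POD1, 77960, 77880 and 79640 in isotype POD2 and 11400, 11920 and 13880 in anti-Gr1 POD2. Its interaction was -2.95 ± 1.38 with 12 libraries (adjusted p = 0.162, edgeR) and -0.44 ± 0.49 with 10 (adjusted p = 0.579). Of 38 plasma protein and hepatocyte factor genes 1 was lower and 0 higher, with medians of -1.62 with 12 libraries and 0.03 with 10. Within days and without the pair, 27 of 38 were lower in libraries labelled anti-Gr1 at POD1, where 8.82% of all genes were called lower and 5.85% higher (14.7% together). At POD2 29 were lower, where 20.6% of all genes were called lower and 19.8% higher (40.4% together).

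Without the cross-day pair, where anti-Gr1 POD2 was only a near-identical pair, several uptake, bile acid and detoxification genes passed with a higher interaction. Of 37 xenobiotic genes 0 were higher and 2 lower with 12 libraries (median -1.82), and 9 higher and 1 lower with 10 (median 0.73). Of 25 bile acid genes 0 passed with 12 libraries (median -0.96) and 6, all higher, with 10 (median 0.66). With both changes 0 xenobiotic and 0 bile acid genes passed in edgeR, where 10 and 6 were higher at an unadjusted p under 0.05. Cyp8b1, the sterol hydroxylase that makes cholic acid (chr9:121914356-121916305 on the minus strand), was 6.31, 12.3 and 49.1 CPM in isotype POD1, 0.920, 1.97 and 105 in anti-Gr1 POD1, 66, 61.1 and 59.3 in isotype POD2 and 122, 126 and 109 in anti-Gr1 POD2. Its interaction was 0.27 ± 1.81 with 12 libraries (adjusted p = 0.933, edgeR) and 4.91 ± 1.11 with 10 (adjusted p = 0.0252). Abcb11, the bile salt export pump, went from -1.58 to 2.54, Slc10a1, which takes bile acids up, from -1.83 to 1.35, and Slco1b2, an organic anion carrier, from -0.74 to 2.29. For these 3 genes the libraries labelled anti-Gr1 were lower than isotype at POD1 without the pair, at -3.52, -2.29 and -2.36, with adjusted p of 0.000830, 0.000961 and 0.00655 by edgeR's test.

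A few hepatocyte genes were called in 1 of the 2 fits. Hsd3b3, of steroid metabolism, was 0.920, 0.0518 and 50.8 CPM in anti-Gr1 POD1, with an interaction of -1.21 with 12 libraries and 3.94 with 10. Etnppl, of phosphoethanolamine breakdown, was 1.49, 0.259 and 20.4 CPM in anti-Gr1 POD1, with 1.06 and 4.48. Cyp2a4, a cytochrome P450 with near-identical relatives, was -5.16 with 12 (adjusted p = 0.0424, edgeR) and 0.47 with 10 (adjusted p = 0.623). Rdh16f2, a retinol dehydrogenase of its family, was 1.19, 1.04 and 1.74 CPM in isotype POD1, 1.06, 0.414 and 14 in anti-Gr1 POD1, 75.8, 77.2 and 72.1 in isotype POD2 and 6.29, 5.63 and 13.9 in anti-Gr1 POD2, and passed in both fits, at -5.08 ± 1.34 and -2.76 ± 0.46; with 12 libraries its call was lost when any 1 of 8 libraries was left out.

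**Figure D4:**
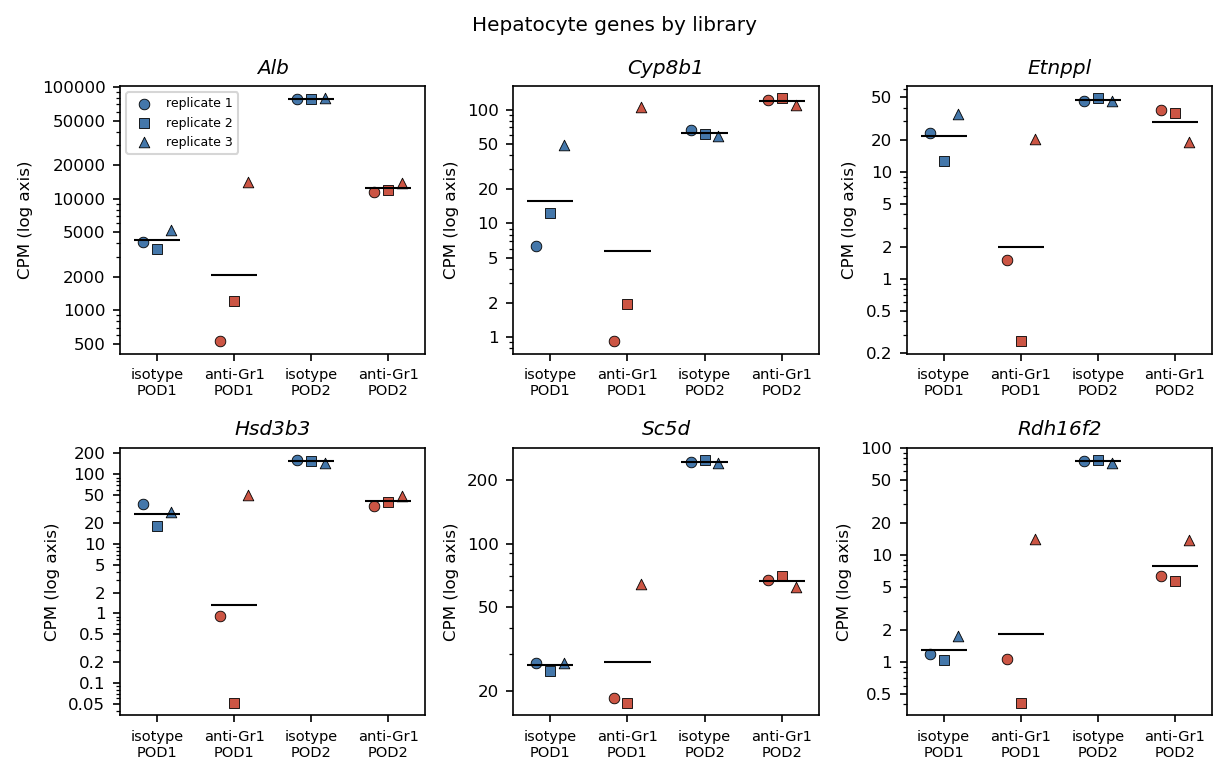
CPM per library on a log axis for 6 hepatocyte genes, with symbols by replicate number and a bar at the geometric mean of the 3 libraries. In each panel replicate 3 of anti-Gr1 POD1 (triangle) lies at or near the anti-Gr1 POD2 libraries and above replicates 1 and 2 of its own group.

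**Figure D5:**
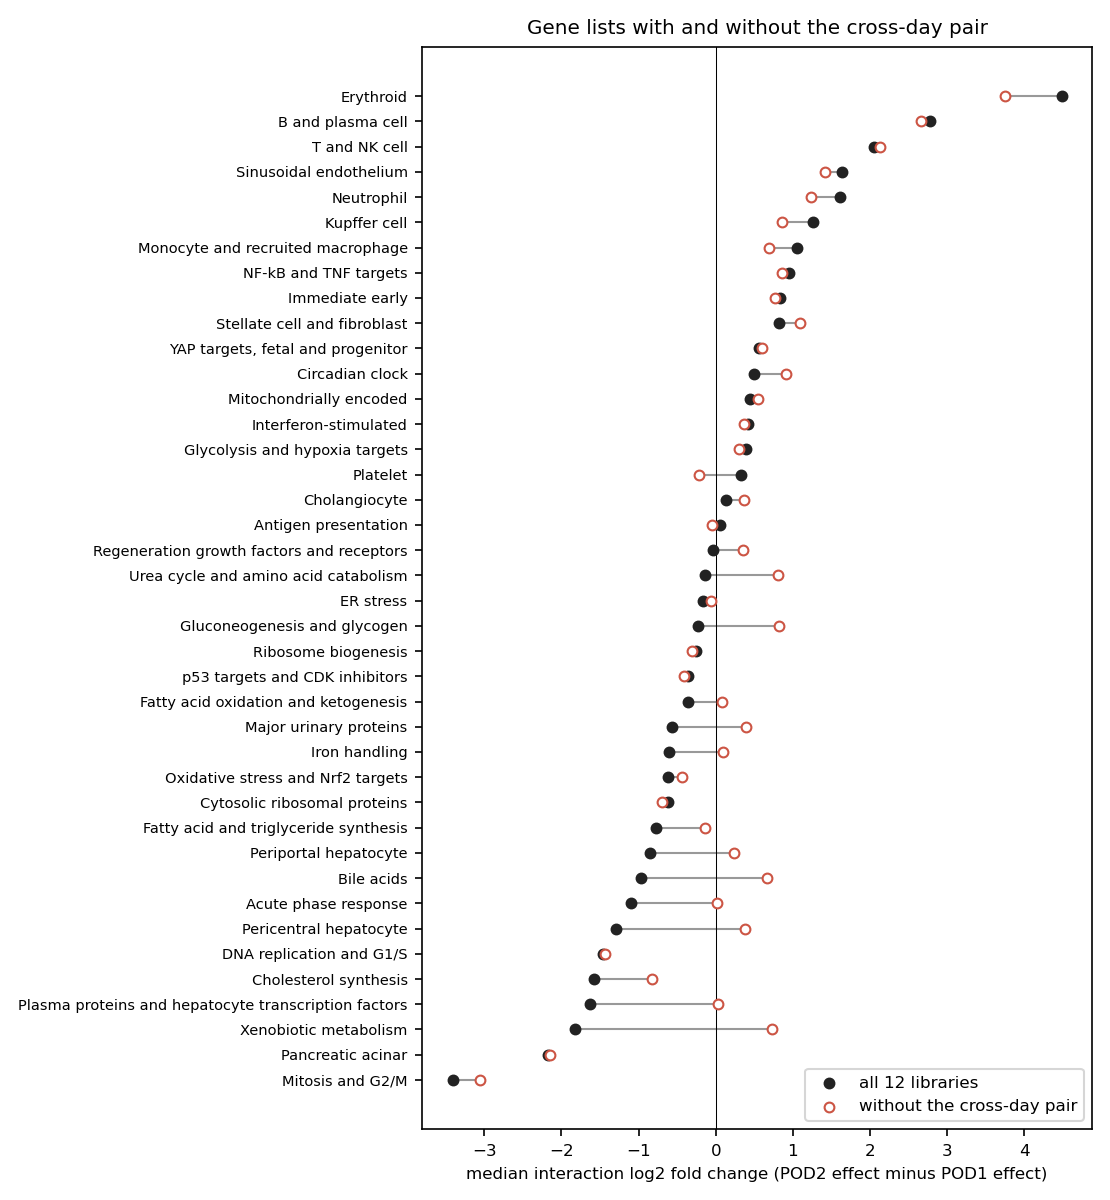
Median interaction (log2) of each gene list with all 12 libraries (filled) and without the cross-day pair (open), joined by a line. Mitotic genes are lowest in both fits, at -3.41 and -3.05, and the xenobiotic list has its median at -1.82 with all libraries and at 0.73 without the pair.

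Transcripts of other organs also moved between libraries. Star and Cyp11b2 serve steroid synthesis in the adrenal gland. In anti-Gr1 POD2 Star was 136, 138 and 1.66 CPM and Cyp11b2 was 9.65, 11.1 and 0 CPM, so that replicates 1 and 2, a near-identical pair, were high and replicate 3 was not. Without the cross-day pair they passed at 5.57 ± 0.95 and 7.76 ± 1.66, and with 12 libraries they did not, at adjusted p of 0.0646 and 0.0711 by edgeR's test. Hsd3b6, Lypd8, Kcnk9 and Akr1b7 were high in the same pair. Of 38 pancreatic acinar genes 0 were higher and 0 lower (median -2.17) in edgeR, limma and DESeq2, with 0 at an unadjusted p under 0.05 in edgeR. Their summed level was 31610, 100100 and 145 CPM in isotype POD1, 278200, 1786 and 31930 in anti-Gr1 POD1, 100000, 98740 and 516500 in isotype POD2 and 167300, 180800 and 31140 in anti-Gr1 POD2, and within isotype POD1 alone it spanned 145 to 100100. With acinar genes removed before scaling, the all-gene median shifted by 0.118 and 1761 genes were higher and 897 lower. Without scaling factors it shifted by 0.592, and 2904 were higher and 292 lower.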

How the data were processed

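Poly A RNA of 12 hepatocyte preparations, 3 in each of 4 groups, was sequenced. The values are whole-number counts of reads per gene deposited by the authors. Per the submitters' processing notes cutadapt, STAR, HTSeq and DESeq2 were used with the GRCm38 build; their versions and settings, and the use of strand, were not given in the sources used here. The table held 18227 genes and 0 columns of other samples. Of its gene identifiers 18214 were found in GENCODE M21, which gave coordinates, 17965 of them with the same symbol; 15 symbols occurred more than once. Totals were 13189392 to 15822043 counts per library.

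Genes were filtered by filterByExpr, scaled by TMM (factors 0.6019 to 1.285) and fitted in edgeR 4.0.16 (R 4.3.3) with 1 mean per group, robust quasi-likelihood and all 12 libraries, which left 15294 genes. CPM are counts of tested genes scaled to a common library total with the TMM factors. Log2 fold changes were taken from the fit at edgeR's default prior count. A prior count of 1 entered only the log2 CPM used for the spread of list means and for the check of replicate numbers. Genes with a Benjamini-Hochberg adjusted p under 0.05 were called. The same fit was made without the cross-day pair, with near-identical pairs within a group summed, and with both. Each of these was filtered and scaled anew. Alternatives were DESeq2 1.42.0, its size factors, limma 3.58.1 with quality weights, no scaling, no filter, acinar genes removed, a replicate block and leaving out each library.

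Gene lists and named genes were chosen with earlier results of these data known, so that no list is independent support. Named genes are, per direction, the 10 called genes with the largest absolute interaction and a mean log2 CPM of at least 1, without predicted genes and pseudogenes, in the 12-library and in the 10-library fit, and the 10 largest among genes called in all 4 sets. Up to 3 genes per list with the smallest p and 26 fixed genes complete the rule. Other list members were named for their role after their values were seen, and some genes that meet the rule are not reported here. Whether replicate numbers pair the samples was not settled. Of 18 same-number pairs 6 had a correlation of deviations over 0.1 (range -0.29 to 0.358). The cross-day pair, with nearly identical counts, reached only 0.237, so a low value in this check cannot exclude pairing.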

Additional observations from a re-analysis of the deposited data

Results flagged for a closer look

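The interaction tests the difference between the 2 days itself, and 1358 genes with a higher and 1181 with a lower antibody effect at POD2 than at POD1 passed it with all 12 libraries. Single genes are given here only where they passed in all 4 sets of libraries, and no cause was tested for any of them. The 5 higher ones were Cd209b at 3.23, Lrp2 at 2.60, Tmcc2 at 2.46, Gabra3 at 2.21 and Sema6a at 1.84 on the log2 scale. The 10 lowest named ones were Cdc20 at -4.93, Iqgap3 at -4.57, Cdca3 at -4.49, Cdca2 at -4.38, Cenpm at -4.15, Ccnb1 at -4.14, Ckap2 at -4.11, Plk1 at -4.08, Depdc1b at -4.0 and Kif2c at -3.97. In each of these 10 lower genes the 3 isotype POD2 libraries lay above the other 9. These genes were picked by their interaction in the same libraries, so the pattern is no separate result. How many of all genes share it was not counted. Single values were not screened for outliers within groups of 3; leaving out each library in turn is reported with the processing.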

How the results depend on the processing

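The 12-library interaction count of 2539 became 877 with near-identical pairs summed and 76 with the cross-day pair left out as well; leaving out 1 library gave 1420 (without anti-Gr1 POD2 replicate 1) to 4187 (without anti-Gr1 POD1 replicate 2). DESeq2 called 3345 genes (1775 higher, 1570 lower), limma 3028 (1660 and 1368), and the table with no filter 2309. No scaling gave 3196 (2904 higher, 292 lower), acinar genes removed 2658 (1761 and 897), and size factors 2522 (1324 and 1198).

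The POD1 count of 525 became 2301 without the cross-day pair, 115 with pairs summed, 793 with both, 311 with no scaling, 1323 with DESeq2 and 199 with limma; leaving out 1 library gave 124 (without isotype POD1 replicate 3) to 2407 (without anti-Gr1 POD1 replicate 3). The POD2 count of 6404 became 3960 with pairs summed, 1650 with both and 10320 with limma; leaving out 1 library gave 4817 to 7427. With a replicate block, although pairing by number was not settled, the interaction count was 2007 (1124 and 883), the POD1 count 298 and the POD2 count 5980.

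No scaling shifted the median of all genes by 0.592 and list medians with it, so that relative to all genes they barely moved (p53 targets -0.33, ER stress -0.13). Below, a list median counts as moved where it shifted by at least a combined spread. This is the square root of the summed variances of the list's mean log2 CPM within the 4 groups, all 12 libraries included. It is larger than the spread within any single group. The list medians it moved were DNA replication (-0.88), p53 targets (0.24), antigen presentation (0.63), ER stress (0.44), oxidative stress (0.01), fatty acid synthesis (-0.16), glycolysis (0.96), ribosome biogenesis (0.34), growth factors (0.55), YAP targets (1.15) and clock genes (1.09). Without the cross-day pair, plasma proteins moved to 0.03 (0.03 with both changes), fatty acid synthesis to -0.14 (-0.15), xenobiotic genes to 0.73 (0.76), pericentral genes to 0.37 and growth factors to 0.35. Bile acid (-0.96 to 0.66), periportal (-0.85 to 0.23) and acute phase genes (-1.10 to 0.02) were among lists that changed sign by less than that combined spread. So were urea cycle (-0.14 to 0.81) and gluconeogenesis genes (-0.23 to 0.82). Leaving out 1 library gave medians of -1.43 to 0.19 for the acute phase, -0.97 to -0.15 for fatty acid synthesis, -0.76 to 0.33 for iron, -1.75 to 0.49 for pericentral genes, -2.09 to 0.06 for plasma proteins, -0.08 to 0.32 for growth factors and -2.36 to 0.97 for xenobiotic genes, with the higher end from leaving out anti-Gr1 POD1 replicate 3. Cyp2a4 (-5.16) turned to 0.47 without the cross-day pair, 0.76 with both changes and 0.42 without anti-Gr1 POD1 replicate 3. Hsd3b2 (-0.57) turned to 5.24 and 5.30 without the pair and with both. Leaving out single libraries took Cyp2a4 as low as -6.25 and Hsd3b2 as low as -1.17. Anxa4 turned to 0.02 with no scaling. The cause was not tested. Of the 116 named genes called, 96 kept their call without the cross-day pair, 19 lost it and 1 reversed; 59 kept it with pairs summed and 25 with both, where a lone anti-Gr1 POD2 library limits the precision.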
